A study of Mus musculus with 9 samples.

Results

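Small leucine-rich proteoglycans were followed in the mouse embryonic fibroblast line NIH 3T3 after transduction with a control, Ube2m or Ube2f short hairpin RNA (shRNA). The 8 genes were taken by name (Dcn, Bgn, Aspn, Lum, Fmod, Prelp, Ogn and Islr), of 18193 genes with a probe set assigned to 1 gene, and all their 19 probe sets are shown. A probe set is the group of short oligonucleotides on an Affymetrix array that are read as 1 value. The main probe set of a gene was chosen by its mean log2(signal + 16) over the 9 arrays, the highest being taken, which uses no group. The genes were listed with earlier results of these arrays known, among them those of Dcn, Bgn and Prelp with Ube2m shRNA and of Islr with Ube2f shRNA, so their p-values below are those of the fit over all genes and no independent evidence.

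The 9 arrays were 3 biological replicates of each of 3 transductions with a retroviral vector, whose hairpin was a control or was directed at Ube2m or Ube2f, and the cells were harvested 5 days later. All groups shared the same culture medium with fetal calf serum, and the growth label of every sample, controls included, describes the cells as expressing Ube2f. The labels do not say whether this means an added construct. The products of Ube2m and Ube2f are E2 enzymes that attach the ubiquitin-related modifier NEDD8 to cullin proteins, around which many ubiquitin ligases are assembled. The labels do not say how many hairpins were used per target, so effects of a hairpin and of its target cannot be told apart.

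Small leucine-rich proteoglycans are secreted matrix proteins built from a curved stack of leucine-rich repeats, most of them carrying chains of chondroitin, dermatan or keratan sulfate. Many bind collagen fibrils and influence how thick the fibrils grow, and several bind growth factors of the TGF-beta family or cell-surface receptors. Decorin (Dcn), biglycan (Bgn) and asporin (Aspn) form one class, lumican (Lum), fibromodulin (Fmod) and prolargin (Prelp) another, and osteoglycin (Ogn) belongs to a further one. Islr encodes a leucine-rich repeat protein with an immunoglobulin domain, also called meflin, which marks mesenchymal stromal cells and is a relative rather than a member of those classes.

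The promoters of the measured members that the reference table lists are shown because these genes were all lower with Ube2m than with Ube2f shRNA. They allow a reader to see what these start regions share. Dcn, the remaining measured member, has no promoter in that table, so none is shown for it. The sequences are RefSeq's on GRCm38.p6, each 300 bases long with 250 bases before the listed start and 50 after it, 5′ to 3′ on the strand of the gene. They lie at chrX:73483351-73483650 on the plus strand for Bgn, chr1:133921352-133921651 on the minus strand for Prelp, chr13:49607765-49608064 on the plus strand for Ogn and chr9:58158505-58158804 on the minus strand for Islr. Capitals mark matches, on either strand, to TATAAA for the TATA box, to the CCAAT box by its own letters, to GGGCGG for the GC box, to TGANTCA for the AP-1 site and to TGACNNNGC for the core of the antioxidant response element.
Bgn: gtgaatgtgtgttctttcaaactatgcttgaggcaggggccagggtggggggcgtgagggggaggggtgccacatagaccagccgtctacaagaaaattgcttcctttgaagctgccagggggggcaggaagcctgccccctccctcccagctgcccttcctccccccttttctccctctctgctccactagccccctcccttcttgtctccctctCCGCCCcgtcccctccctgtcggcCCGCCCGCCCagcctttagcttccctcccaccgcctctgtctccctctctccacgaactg
Prelp: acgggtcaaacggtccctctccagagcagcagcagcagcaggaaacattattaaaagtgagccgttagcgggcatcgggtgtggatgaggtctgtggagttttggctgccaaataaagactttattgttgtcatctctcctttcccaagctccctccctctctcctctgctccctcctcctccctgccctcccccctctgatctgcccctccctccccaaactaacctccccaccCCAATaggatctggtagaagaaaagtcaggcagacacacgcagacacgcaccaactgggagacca
Ogn: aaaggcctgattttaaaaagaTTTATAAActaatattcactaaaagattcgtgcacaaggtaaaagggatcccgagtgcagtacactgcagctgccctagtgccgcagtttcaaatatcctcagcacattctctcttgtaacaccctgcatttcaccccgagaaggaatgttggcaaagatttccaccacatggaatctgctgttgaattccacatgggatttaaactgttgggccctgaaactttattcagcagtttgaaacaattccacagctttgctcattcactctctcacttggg
Islr: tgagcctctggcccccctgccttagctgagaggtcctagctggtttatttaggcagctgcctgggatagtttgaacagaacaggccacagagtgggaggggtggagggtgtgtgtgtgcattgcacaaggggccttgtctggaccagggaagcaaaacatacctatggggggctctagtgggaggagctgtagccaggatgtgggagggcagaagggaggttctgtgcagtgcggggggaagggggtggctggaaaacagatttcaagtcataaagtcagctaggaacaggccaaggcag

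The start regions differed from each other in these letters. Counted from 1 at the first printed base, Bgn held 3 GC boxes on the opposite strand, at bases 217 to 222, 241 to 246 and 245 to 250, the last pair overlapping. Prelp held a CCAAT box at bases 236 to 240. Ogn held 2 overlapping matches to the TATA letters, at bases 22 to 27 on the opposite strand and 24 to 29 on its own. Their first bases lie far from the listed start, at -229 and -227. Islr held none of the 5 motifs. AP-1 and antioxidant letters were found in none of the 6 member promoters in the table, those of Aspn and Fmod included. Of all 32851 promoters of this length, 13.6% held the TATA letters, 37.4% CCAAT, 35.7% the GC box, 7.81% the AP-1 letters and 12.4% the antioxidant core. A match or its absence describes only these letters in this window.

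Signals are MAS5 values on a linear scale, which depend on each probe set, so a level is compared only between groups for the same probe set. A gene was tested if the mean log2(signal + 16) of its main probe set over the 9 arrays reached 6.12, a signal of 53.8, the median over the probe sets after leaving out controls. This left 10613 genes. Of the 8 members 5 were tested (Dcn, Bgn, Prelp, Ogn and Islr) and 3 were not (Aspn, Lum and Fmod). Islr was just inside with a mean of 6.49 and Aspn just outside with 5.98. Islr reached the level only through the Ube2f shRNA arrays, so counts over the 5 tested members are a description and support nothing.

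Across the series, the trimmed mean signal was 500 on every array. The median signal was 53.3 to 58.5 on replicates 1 and 2 of the 3 groups and 64 to 73.5 on the replicates numbered 3. Beta-actin signal at the 3′ end over that at the 5′ end was 1.82 on control replicate 1 and 1.24 to 1.35 on the other 8 arrays. The mean signal of the bacterial and phage spike probe sets was 4288 on control replicate 1 and 4120 on control replicate 2. In replicates 1 and 2 with either targeting hairpin it was 5460 to 6712. In replicate 3 it was 6078 in control against 4018 with Ube2m and 4239 with Ube2f shRNA. Ube2f was read at 132 ± 13.2 in its own knockdown against 2539 ± 199 in control (SD, n = 3), or 5.21% of control. For Ube2m there was no probe set with that single gene name, so that knockdown was not checked here. All 11 fibroblast markers with a probe set reached the level, against 3 of 10 chondrocyte, 3 of 8 tenocyte, 1 of 5 osteoblast, 1 of 7 adipocyte, 2 of 9 skeletal muscle, 2 of 9 macrophage, 1 of 8 endothelial and 3 of 8 epithelial markers. In a bulk sample, fewer cells of a type and less RNA per cell cannot be told apart.

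Decorin, which binds collagen and TGF-beta, fell with Ube2m shRNA and was higher, by a marginal call, with Ube2f shRNA. The 3 control arrays read 625.4, 746.4 and 601.7, the Ube2m shRNA arrays 176.8, 159.2 and 217.5, and the Ube2f shRNA arrays 1154, 802.1 and 1293. All Ube2m arrays lay below all control arrays, and all Ube2f arrays above them. The group means were 658 ± 77.6 in control, 184 ± 29.9 with Ube2m shRNA and 1083 ± 253 with Ube2f shRNA (SD, n = 3 each), so that Ube2m shRNA left 28.0% of the control signal and Ube2f shRNA gave 165%. Against control, limma gave log2 fold changes of -1.75 with Ube2m shRNA (adjusted p = 0.000132) and 0.68 with Ube2f shRNA (adjusted p = 0.0493), each with an SE of 0.18. The second call was marginal and was lost in 16 of 24 alternative settings, with adjusted p-values of 0.0153 to 0.195 over them, although its direction was higher in all 24. It was lost, for example, without Ube2f replicate 1 (0.63, limma adjusted p = 0.195), without control replicate 1 (0.65, limma adjusted p = 0.148) or when Ube2m replicate 1, which is in neither group, was left out (0.68, limma adjusted p = 0.0702). Between the knockdowns the log2 difference was -2.44 (SE 0.18, adjusted p = 4.04e-06). The other Dcn probe set read 2.9 to 49.4 over the 9 arrays, under the level, and the fold with both averaged was -0.99 for Ube2m shRNA against control.

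Biglycan, the close relative of decorin, was read by 3 probe sets, all lower with Ube2m shRNA. The main one read 14937.7, 13727.6 and 14141.3 in control, 9406.8, 9480.4 and 8741.3 with Ube2m shRNA, and 14247.8, 15593.2 and 13928.4 with Ube2f shRNA. The Ube2m arrays lay apart below the other 6, and the control and Ube2f arrays overlapped. The mean fell from 14269 ± 615 to 9210 ± 407 with Ube2m shRNA (SD, n = 3 each), to 64.5% of control (log2 fold change -0.63, SE 0.09, adjusted p = 0.00138). After centring of the arrays on their medians the fold was -0.72 and did not pass (limma adjusted p = 0.0574), and with centring on the median of the probe sets that reached the level it was -0.62 and passed (limma adjusted p = 0.0114). With Ube2f shRNA the mean was 14590 ± 884, a log2 difference of 0.03 (SE 0.09, adjusted p = 0.895), which is within its error. In a fit over all 19684 probe sets that reached the level, the other 2 probe sets gave -0.61 and -0.66 for Ube2m shRNA (limma adjusted p = 0.00292 and 0.00168). That fit called 5.37% of probe sets in this comparison, 2.95% as lower. With Ube2f shRNA these 2 probe sets read 109% and 110% of control with no overlap, by log2 differences of 0.13 and 0.14 that did not pass (limma adjusted p = 0.472 and 0.412). All 3 may share transcripts, so they are not separate measurements of the gene.

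Prolargin, which carries a basic stretch that binds heparan sulfate and anchors matrix to basement membranes, fell with Ube2m shRNA. Its main probe set read 2359.4, 1682 and 950.5 in control, 330.1, 333.4 and 442.8 with Ube2m shRNA, and 1584.4, 1647.8 and 1706.7 with Ube2f shRNA. The control arrays were spread widely, with replicate 1 highest and replicate 3 lowest, and all 3 still lay above the Ube2m arrays. The Ube2f arrays lay close together inside the control range. The mean fell from 1664 ± 705 to 369 ± 64.1 (SD, n = 3 each), to 22.2% of control. The log2 fold change was -2.04 by limma (adjusted p = 0.000412, SE 0.25). The log2 difference averaged -2.53 over replicates 1 and 2 and was -1.07 in replicate 3. Leaving out 1 array at a time gave -2.40 to -1.75, past the threshold each time. With Ube2f shRNA the difference from control was 0.08 (SE 0.25, adjusted p = 0.902). The second probe set, read at 944 ± 260 in control and 307 ± 56.7 with Ube2m shRNA, gave -1.55 in the fit over all probe sets (SE 0.20, limma adjusted p = 0.00196).

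Osteoglycin, also known as mimecan, did not pass against control in either knockdown with its main probe set. That probe set read 383.1, 799.5 and 624 in control, 356, 415.3 and 439.1 with Ube2m shRNA, and 862.9, 611.9 and 904.8 with Ube2f shRNA. Control replicate 1 lay inside the Ube2m range and the other 2 control arrays above it, while every Ube2f array lay above every Ube2m array. The log2 differences were -0.50 for Ube2m shRNA (SE 0.23, adjusted p = 0.197) and 0.43 for Ube2f shRNA (SE 0.23, adjusted p = 0.328). The Ube2m difference rested on the control arrays, being -0.79 without control replicate 1, which passed (limma adjusted p = 0.0428), and -0.27 without control replicate 2 (limma adjusted p = 0.51). The Ube2f difference was 0.14 to 0.66 with 1 array left out at a time and never passed. Between the knockdowns the difference was -0.93 (SE 0.23, adjusted p = 0.0157), a call lost without Ube2m replicate 1 (-0.85, limma adjusted p = 0.0624) or Ube2f replicate 1 (-0.86, limma adjusted p = 0.0657). The second Ogn probe set read 386, 495 and 503.3 in control, 271.1, 275.7 and 293.7 with Ube2m shRNA and 665.7, 467.4 and 702.1 with Ube2f shRNA. There the control and Ube2m arrays did not overlap, and the fit over all probe sets gave -0.68 (SE 0.18, limma adjusted p = 0.0485). The 2 probe sets thus differed in whether Ube2m shRNA passed against control.

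Islr, the meflin gene, rose with Ube2f shRNA from a signal near the low-signal level, and it was tested only because its Ube2f arrays are high. Its only probe set read 48.7, 42.7 and 61.8 in control, 10.5, 23.3 and 38.4 with Ube2m shRNA, and 236, 226.9 and 355 with Ube2f shRNA. The 3 groups did not overlap, with Ube2m lowest and Ube2f highest. The mean was 51.1 ± 9.77 in control and 273 ± 71.5 with Ube2f shRNA (SD, n = 3 each). The log2 difference was 2.09 by limma (adjusted p = 0.00202, SE 0.31). With no filter on low signals, where every gene was tested, it passed as well (limma adjusted p = 0.00578). The fold depends on the constant added, and was 1.53 with 64 and 2.38 at most over the 23 alternatives that could be run, past the threshold in all. With Ube2m shRNA the mean was 24.1 ± 14, a difference of -0.79 that did not pass (SE 0.31, adjusted p = 0.127). With the arrays numbered 3 as a batch term, the same difference passed (limma adjusted p = 0.0409). Between the knockdowns the difference was -2.88 (SE 0.31, adjusted p = 6.14e-05). The Ube2m and control means lie under the low-signal level, so the size depends on the constant, and the difference was -1.93 with 64 and -3.59 with 1.

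**Figure D1:**
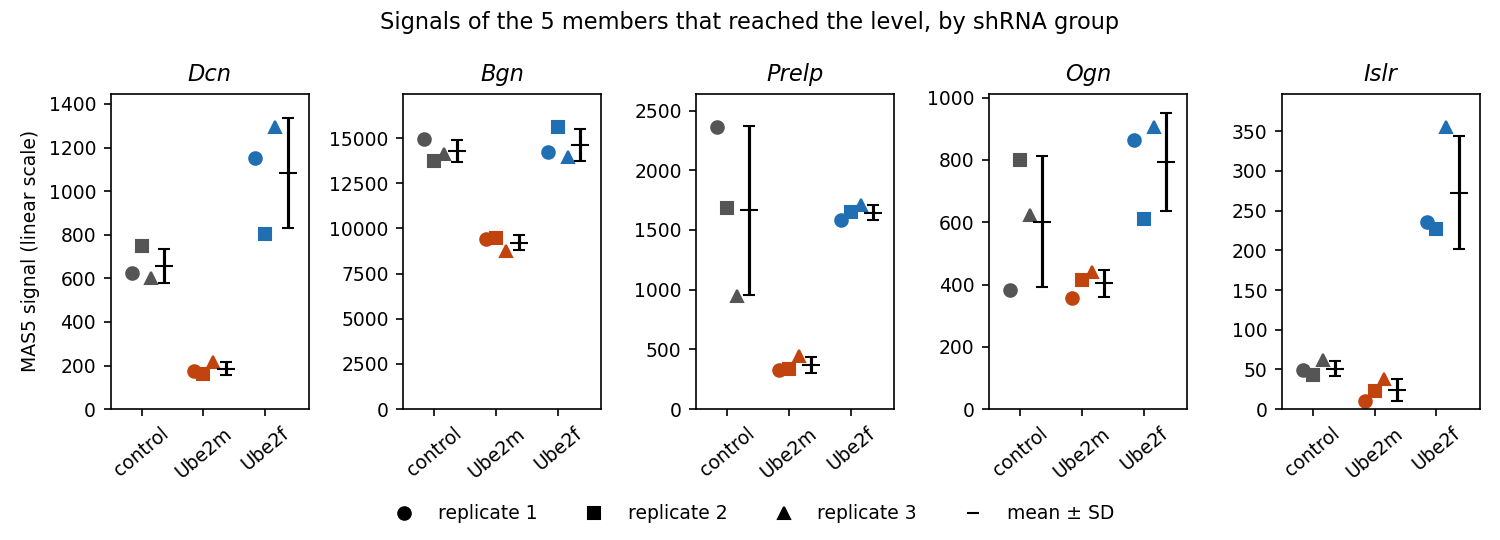
MAS5 signal on a linear axis for the main probe set of Dcn, Bgn, Prelp, Ogn and Islr in the control, Ube2m and Ube2f shRNA groups. Symbols are single arrays by replicate number and the bars beside them the mean ± SD of 3 arrays; the Ube2m arrays are apart below the Ube2f arrays in every panel, and control replicate 1 of Ogn (383.1) lies among the Ube2m arrays.

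Aspn, Lum and Fmod stayed under the level and have no test. Asporin, which binds collagen and TGF-beta, read 50.9, 101.4 and 17.2 in control, 24.3, 30.6 and 15.2 with Ube2m shRNA and 119.5, 54.1 and 91.9 with Ube2f shRNA. Its Ube2f arrays lay above its Ube2m arrays, as they did with the second Aspn probe set (38.3 to 107.9 against 14.7 to 16.1), while the control arrays of the main probe set overlapped both. Fibromodulin, a keratan sulfate proteoglycan that binds collagen in tendon, had 6 probe sets, and its main one read 20.7 to 47.3 in control, 11.1 to 30.2 with Ube2m shRNA and 50.8 to 81 with Ube2f shRNA. Its Ube2f and control arrays did not overlap on that probe set and overlapped on the other 5. Lumican, a keratan sulfate proteoglycan known from the cornea, read 7.3 to 28.5 in control, 28.1 to 39.3 with Ube2m shRNA and 3.8 to 38.2 with Ube2f shRNA, and its groups overlapped in every comparison. Signals this low vary strongly between arrays in MAS5.

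Over all 19 probe sets, 16 had a lower mean log2 signal with Ube2m shRNA than in control and 3 a higher one, while 17 were higher and 2 lower with Ube2f shRNA. Of the 9 that reached the level, all 9 were lower with Ube2m shRNA, with differences of -2.04 to -0.50, and all 9 were higher with Ube2f shRNA, by 0.03 to 2.09. The Ube2f differences of the main Bgn and Prelp probe sets (0.03 and 0.08) were within their SE (0.09 and 0.25). The Islr probe set reached the level only through its Ube2f arrays. Shares of each direction over all probe sets were not computed, so these counts are a description. The 10 under the level were divided, with 7 lower and 3 higher for Ube2m shRNA and 8 higher and 2 lower for Ube2f shRNA. Both sets of differences use the same control arrays, and probe sets of 1 gene are not independent.

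**Figure D2:**
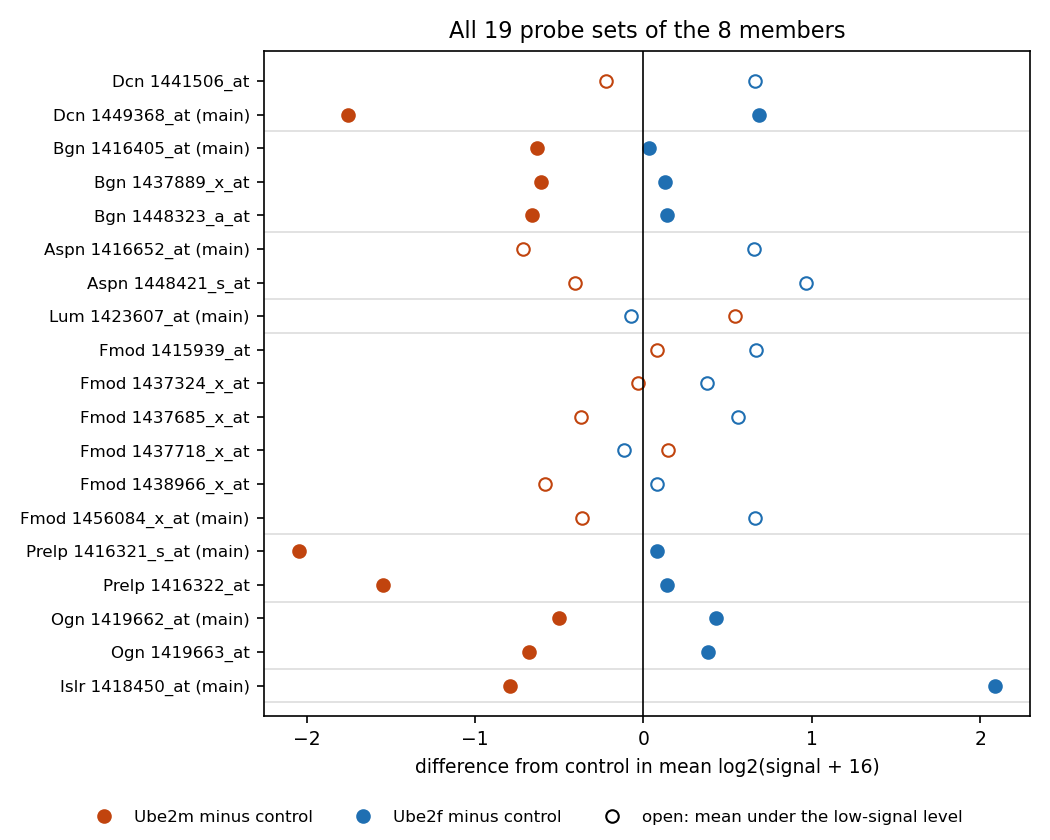
Difference from control in mean log2(signal + 16) for all 19 probe sets of the 8 members, with Ube2m shRNA in red and Ube2f shRNA in blue. Filled points are the 9 probe sets that reached the low-signal level, where every red point is below 0 and every blue point above it, and open points are the 10 under it. The blue points of the main Bgn and Prelp probe sets lie within their standard error of 0.

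With Ube2m shRNA, 3 of the 5 tested members fell against control (Dcn, Bgn and Prelp), none rose, and 2 did not pass (Ogn and Islr). Limma called 9.71% of all 10613 genes in this comparison, 3.59% as higher and 6.12% as lower. The median log2 fold change was -0.79 over the 5 tested members, which is the value of Islr, and -0.04 over all genes tested. The Ube2m arrays lay wholly below the control arrays in 4 of the 5 (Dcn, Bgn, Prelp and Islr), which held for 18% of all genes. Islr is among the 5 only because its Ube2f arrays are high, and its Ube2m and control means lie under the low-signal level. The median and this count are therefore a description. Without Islr the differences were -2.04 (Prelp), -1.75 (Dcn), -0.63 (Bgn) and -0.50 (Ogn). Averaged over replicates 1 and 2 the log2 differences were -1.93 for Dcn and -0.60 for Bgn, and in replicate 3 they were -1.40 and -0.69.

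With Ube2f shRNA, Islr and Dcn rose against control, none fell, and Bgn, Prelp and Ogn did not pass. Limma called 5.19% of all genes in this comparison, 2.23% as higher and 2.96% as lower. The median log2 fold change was 0.43 over the 5 tested members and 0.01 over all genes tested. Islr is among the 5 only because its Ube2f arrays are high, so this median is a description. Without Islr the differences were 0.68 (Dcn), 0.43 (Ogn), 0.08 (Prelp) and 0.03 (Bgn). The arrays lay wholly above control for Dcn and Islr, which held for 11.6% of all genes. Averaged over replicates 1 and 2 Islr differed by 2.01 and Dcn by 0.48, and in replicate 3 by 2.25 and 1.08. The Dcn mean joins unlike values, 0.87 in replicate 1 and 0.10 in replicate 2. Prelp differed by -0.57 and -0.03 in replicates 1 and 2 (mean -0.30) and by 0.83 in replicate 3, opposite in sign.

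Between the knockdowns, all 5 tested members were lower with Ube2m than with Ube2f shRNA, and their arrays did not overlap. Limma called 15.8% of all genes here, 6.37% as higher and 9.38% as lower, and in 20.6% of all genes the Ube2m arrays lay wholly below the Ube2f arrays. The median was -2.12 over the 5 tested members and -0.04 over all genes tested, a description only, since Islr was tested through its high Ube2f arrays. Without Islr the differences ran from -2.44 (Dcn) through -2.12 (Prelp, SE 0.25, adjusted p = 0.000128) and -0.93 (Ogn) to -0.66 (Bgn, SE 0.09, adjusted p = 0.000499). The Bgn call was lost with arrays centred on their medians (-0.68, limma adjusted p = 0.0517). In linear signal, the Ube2f group stood 5.87-fold above the Ube2m group for Dcn, 4.46-fold for Prelp, 1.97-fold for Ogn and 1.58-fold for Bgn. Averaged over replicates 1 and 2, and in replicate 3, the log2 differences were -2.41 and -2.49 for Dcn and -2.23 and -1.91 for Prelp. They were -0.66 and -0.67 for Bgn, -0.89 and -1.02 for Ogn, and -2.94 and -2.77 for Islr. The differences of this comparison use no control array, but its SE and adjusted p-values rest on a spread estimated from all 9 arrays. The spike means were 4018 to 6110 in the Ube2m group and 4239 to 6712 in the Ube2f group. Their part in these differences was not tested.

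**Figure D3:**
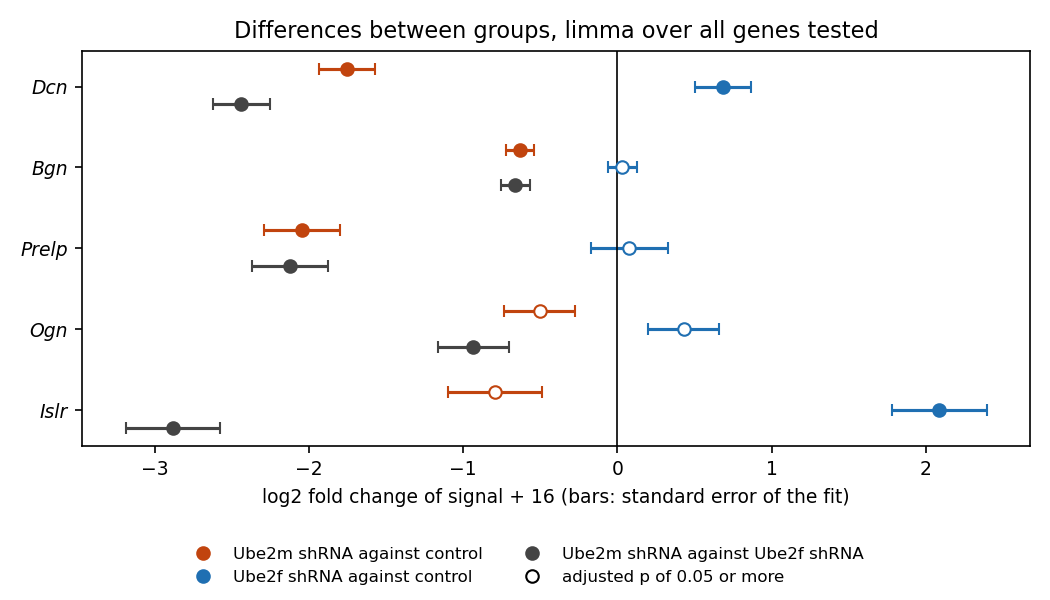
Log2 fold change of signal + 16 for the 5 tested members in the 3 comparisons, with bars of 1 standard error from the limma fit. Open points have an adjusted p of 0.05 or more; the dark points, Ube2m against Ube2f shRNA, run from -2.88 for Islr to -0.66 for Bgn.

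Most of the family lies in 3 groups of neighbouring genes in the mouse genome, and within each group only some genes reached the level. Among protein-coding genes of the RefSeq table (GRCm38.p6), Optc, Prelp and Fmod follow each other, as do Dcn, Lum, Kera and Epyc, and Ecm2, Aspn, Omd and Ogn. Islr lies beside Islr2, and Bgn has no relative next to it. Next to Prelp, neither Fmod nor Optc (4.6 to 47.4 over the 9 arrays) reached the level. Of the neighbours of Dcn, none of Lum, Kera (1.2 to 21.4) and Epyc (3.6 to 54.6) did. Next to Ogn, osteomodulin (Omd) reached it, with 109 ± 13.9 in control, 104 ± 32.2 with Ube2m shRNA and 108 ± 11.6 with Ube2f shRNA (SD, n = 3 each), and was not called in any comparison. Of the 11 further relatives with a probe set, 2 (Omd and Podn) were tested, and 0 were called by limma at an adjusted p under 0.05 in any of the 3 comparisons.

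**Figure D4:**
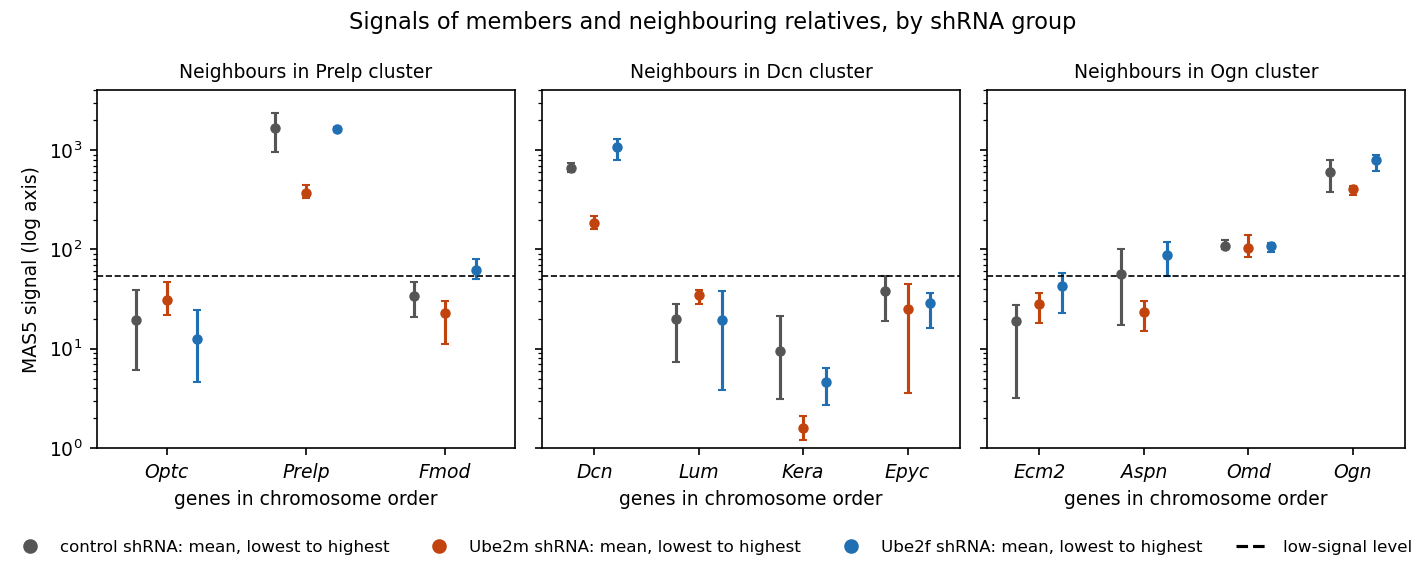
MAS5 signal on a log axis for genes that lie next to each other in the 3 neighbourhoods, drawn as the mean and the lowest to highest array of each shRNA group. The dashed line is the low-signal level of 53.8, reached in mean log2(signal + 16) over the 9 arrays by Prelp, Dcn, Omd and Ogn; signals of different genes come from different probes and are not compared.

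Among enzymes that build the sulfated chains of these proteins, 2 of 22 tested genes for the linkage region and for chondroitin or dermatan sulfate fell with Ube2m shRNA and none rose, where 6.12% of all genes were called lower, 3.59% higher and 9.71% either way. A count this near the share of all genes is no result about these enzymes. They were the sulfotransferase gene Chst7 (log2 fold change -0.72, adjusted p = 0.00536) and Slc35b2, a transporter of the sulfate donor (-0.47, adjusted p = 0.0313). With Ube2f shRNA 0 of the 22 were called by limma, beside 5.19% of all genes. Between the knockdowns 4 were lower and 3 higher with Ube2m shRNA, beside 9.38% and 6.37% of all genes. The lower ones included Csgalnact1, which starts chondroitin chains (-0.67, adjusted p = 0.00411), the sulfotransferase gene Chst11 (-0.81, adjusted p = 0.00546) and Ugdh, which makes the precursor UDP-glucuronate (-0.50, adjusted p = 0.0086). The higher ones were Ust (0.71, limma adjusted p = 0.027), B4galt7 (0.97, limma adjusted p = 0.0287) and Papss2 (0.48, limma adjusted p = 0.041). B4galt7 and Papss2 were named after their values were seen. The medians of the list were -0.07, 0.01 and -0.21 in the 3 comparisons, against -0.04, 0.01 and -0.04 over all genes. Of 4 tested keratan sulfate enzymes, only B3gnt2 fell with Ube2f shRNA (-0.40, adjusted p = 0.0252), beside 2.96% of all genes. None of the 4 was called with Ube2m shRNA against control. Between the knockdowns B3gnt2 was higher with Ube2m shRNA (0.32, limma adjusted p = 0.0334), beside 6.37% of all genes.

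Of 11 tested fibrillar or bound collagens, the main partners of these proteoglycans, 2 fell with Ube2m shRNA, Col5a1 (-0.48, adjusted p = 0.00731) and Col11a1 (-0.71, adjusted p = 0.042), and Col5a3 rose (0.67, adjusted p = 0.0176). The list median was -0.15, and the 3 calls stand beside 9.71% of all genes. Between the knockdowns 2 of the 11 were higher and 3 lower with Ube2m shRNA, beside 6.37% and 9.38% of all genes. With Ube2f shRNA only Col6a2, a chain of the microfibrillar collagen that decorin and biglycan bind, rose (0.34, adjusted p = 0.0443), beside 2.23% of all genes. Of 6 tested genes for collagen processing and cross-linking 3 fell with Ube2m shRNA and none rose, beside 6.12% lower and 3.59% higher over all genes. They were the lysyl oxidase genes Lox (-0.57, adjusted p = 0.00292), Loxl3 (-0.93, adjusted p = 0.00854) and Loxl1 (-0.38, adjusted p = 0.0435). Lox fell with Ube2f shRNA as well (-0.51, adjusted p = 0.00872), where 2.96% of all genes were called lower. Between the knockdowns 3 of the 6 were lower with Ube2m shRNA and none higher, beside 9.38% and 6.37% of all genes.

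Of 9 tested proteases that cut proteoglycans and their inhibitors, 4 fell and 1 rose with Ube2m shRNA, beside 6.12% lower and 3.59% higher over all genes. Between the knockdowns 5 were lower with Ube2m shRNA and none higher, where 9.38% of all genes were lower. Adamts1, a protease that cuts versican, fell from 2386 ± 544 to 1107 ± 32.8 (SD, n = 3 each; log2 fold change -1.07, adjusted p = 0.000705), as did Mmp2 (-0.68, adjusted p = 0.00264) and the inhibitor gene Timp3 (-0.87, adjusted p = 0.00318), and Htra1, a serine protease, rose (0.56, adjusted p = 0.0129). The fourth fall was that of Adamts5 (-0.70, adjusted p = 0.0149), named after its value was seen. With Ube2f shRNA only Timp1 was called, as lower (-0.71, adjusted p = 0.00918), beside 2.96% of all genes. The list medians were -0.41 with Ube2m and -0.11 with Ube2f shRNA.

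Larger and cell-surface proteoglycans were divided with Ube2m shRNA, with 4 of 12 tested genes lower and 1 higher, beside 6.12% and 3.59% of all genes. Versican (Vcan), a large chondroitin sulfate proteoglycan, fell from 5920 ± 282 to 3441 ± 284 (SD, n = 3 each; -0.78, adjusted p = 0.000852), and betaglycan (Tgfbr3), a co-receptor for TGF-beta, fell likewise (-0.87, adjusted p = 0.000937). Agrn fell as well (-0.83, adjusted p = 0.00123), and Gpc1, a glypican held in the membrane by a lipid anchor, rose from 1207 ± 151 to 2437 ± 114 (1.01, adjusted p = 0.000233). The fourth fall was that of Cspg4 (-0.59, adjusted p = 0.0315). It was also the 1 gene of the list called with Ube2f shRNA, again as lower (-0.61, adjusted p = 0.0394), beside 2.96% of all genes.

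Of 14 tested growth factors and receptors that these proteoglycans are known to bind, the receptor tyrosine kinase gene Met, whose product binds decorin, was higher with Ube2m shRNA and lower with Ube2f shRNA. It read 1473 ± 204 in control, 2719 ± 136 with Ube2m shRNA and 608 ± 87.4 with Ube2f shRNA (SD, n = 3 each), with log2 fold changes of 0.89 (adjusted p = 0.0017) and -1.26 (adjusted p = 0.00025). Tgfb2 rose with Ube2m shRNA (0.88, adjusted p = 0.0171), and Lrp1, an endocytic receptor for decorin, fell (-0.92, adjusted p = 0.00969). Igf1r fell with Ube2f shRNA (-0.84, adjusted p = 0.00284). Against control the list thus held 2 genes called higher and 1 lower with Ube2m shRNA, beside 3.59% and 6.12% of all genes. With Ube2f shRNA it held 2 called lower, beside 2.96% of all genes. Between the knockdowns 7 of the 14 were higher with Ube2m shRNA and none lower, where 6.37% of all genes were called higher and 9.38% lower. Among the 7 were Met (2.14, adjusted p = 1.56e-06), Tlr4 (1.09, adjusted p = 0.00162), through which biglycan is known to signal, and Egfr (0.90, adjusted p = 0.00428). The list median between the knockdowns was 0.48, against -0.04 over all genes.

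The genes whose signals followed a member most closely over the 9 arrays were found by Pearson correlation of log2(signal + 16), 2 per tested member. They were Vcan (0.995) and Cdh11 (0.991) for Dcn, Cggbp1 (0.991) and Cdsn (0.989) for Bgn, and Adgrl2 (0.989) and Adamts1 (0.988) for Prelp. For Ogn they were Vamp4 (0.949) and Msantd4 (0.944), and for Islr Olfml3 (0.990) and Cntln (0.985). These are the highest values out of all genes tested over 9 arrays that fall into 3 groups and share their scaling, so they describe a likeness of pattern. Among the members themselves the correlation was highest between Bgn and Prelp (0.935) and lowest between Ogn and Prelp (0.608), over the same 9 arrays.

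Of 11 tested fibroblast markers, 1 was called with Ube2m shRNA, 1 with Ube2f shRNA and 3 between the knockdowns. Of all genes, 9.71%, 5.19% and 15.8% were called in these comparisons, so counts this small are no result about the markers. Col1a1, Col1a2, Col3a1, Vim, S100a4, Fn1, Sparc and P4hb were called in none of them. The 11 fibroblast markers summed to 170619 to 208741 in control, 167157 to 188865 with Ube2m shRNA and 188743 to 216138 with Ube2f shRNA. Of these 11, Thy1 fell with Ube2m shRNA (-0.70, adjusted p = 0.0163) and Pdgfra rose with Ube2f shRNA (0.72, adjusted p = 0.00997). Between the knockdowns Thy1, Pdgfra and Pdgfrb were lower with Ube2m shRNA (-0.67, -0.96 and -0.51, limma adjusted p = 0.0114, 0.000578 and 0.00928). These genes, and those of other cell types below, were named after their values were seen.

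The summed signal of 10 chondrocyte markers was 2438 to 2991 in control, 1664 to 2259 with Ube2m shRNA and 2646 to 4228 with Ube2f shRNA. Most of it came from Sox9, a transcription factor, with means of 2483, 1552 and 2996, which fell with Ube2m shRNA (-0.68, adjusted p = 0.0296). Col9a1 and Comp, the other tested markers of that list, had their lowest mean with Ube2f shRNA and were not called, and Col2a1, Acan, Matn1, Matn3, Hapln1, Col11a2 and Chad were under the level. The 8 tenocyte markers, Fmod and Kera among them, summed to 2327 to 8068 in control, 3459 to 5276 with Ube2m shRNA and 7425 to 10384 with Ube2f shRNA. Most of that came from Egr1, an immediate early gene, with means of 3808 ± 3025, 3483 ± 936 and 7779 ± 1434 (SD, n = 3 each), while Scx, Tnmd and Thbs4 were under the level.

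Other lists separated from control in 1 knockdown. Shares for such sums were not computed, so these separations are a description. With Ube2m shRNA the epithelial sum was 5801 to 6521 against 3260 to 5378 in control, mostly Krt14 (0.49, adjusted p = 0.152), and 2723 to 4210 with Ube2f shRNA. The skeletal muscle sum was 1082 to 1267 against 672 to 916, mostly Acta1, which rose (0.68, adjusted p = 0.0278), and 672 to 749 with Ube2f shRNA. The adipocyte sum was 4591 to 4898 against 3124 to 4273, mostly Lpl (0.39, adjusted p = 0.0668), and 3930 to 4834 with Ube2f shRNA. The endothelial sum, with 1 of 8 markers reaching the level, was 181 to 256 with Ube2f shRNA. It was 258 to 304 in control and 260 to 322 with Ube2m shRNA. Osteoblast and macrophage sums overlapped control in both knockdowns. The part of other cell types in the members' differences was not tested.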

How the data were processed

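RNA of 9 cultures was measured on 1-colour Affymetrix arrays from 6 ug of total RNA per the labels' protocols. The deposited values are linear signal intensity per probe set (45101), which per the submitters' processing notes the authors made with MAS5. For the MAS5 version and the scaling of arrays, the sources used here say nothing. Trimming 2% of probe sets at each end gave the same mean on every array, as MAS5's global scaling to a target does; it leaves differences in the shape of the distributions in place. MAS5 signals vary strongly near background.

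From these, log2(signal + 16) was computed. The 64 control probe sets, 932 with several genes and 9160 with no gene name were left out, which left 34945, of which 34741 were found in RefSeq under the same symbol. No probe set with several genes named a member. A model with a mean for each group was fitted by limma 3.58.1 (R 4.3.3; all 9 arrays; eBayes with an intensity trend), two-sided, Benjamini-Hochberg over all 10613 genes, threshold 0.05, and SE is that of the fit. The 19684 probe sets that reached the level were fitted likewise. The script was tested on simulated data. Exact tests of 3 against 3 arrays cannot reach the threshold and were not used. The number of arrays limits the precision. Members, gene lists and tests were chosen with earlier results of these data known. Named genes were all members, up to 4 genes past the threshold per list and comparison by smallest p, and the 2 genes most like each tested member. The text prints some of these. Among the 9 same-numbered pairs of arrays from different groups, deviations from the group means correlated at -0.0046 to 0.557, with 7 of 9 over 0.1. Among the 18 other pairs the range was -0.387 to 0.276, with 5 over 0.1. The pairs of arrays numbered 3 gave 0.317, 0.349 and 0.557, so these arrays shared deviations across groups. The main fit held no replicate term, and a replicate block and a term for replicate 3 were run as alternatives. Alternatives changed the constant, filter, scaling, probe set rule, prior, arrays and covariates.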

Additional observations from a re-analysis of the deposited data

Results flagged for a closer look

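Dcn and Islr were flagged because all arrays of one knockdown lay below all control arrays while all arrays of the other lay above them. Singly, Ube2m arrays lay wholly below control in 18% of all genes and Ube2f arrays wholly above it in 11.6%. The share of all genes with both separations was not computed, so how unusual the pattern is cannot be said. Ube2m shRNA minus Ube2f shRNA was -2.44 for Dcn and -2.88 for Islr on the log2 scale. These differences restate the separation that singled the genes out and are no further evidence of it. Islr was tested only because its Ube2f arrays are high, and the size of its difference depends on the constant added. Groups of 3 arrays are too small for the search for single outlying samples.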

How the results depend on the processing

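With Ube2m shRNA against control 3 members, and between the knockdowns 5, were the main counts, and over the 24 alternatives they were 2 to 4 and 4 to 5. The first was 2 with arrays centred on their median (Bgn lost), and 4 with replicate 3 as a batch term (Islr added) and without control replicate 1 (Ogn added). With Ube2f shRNA against control the count of 2 became 1 with the filter at the 75th percentile, where Islr was not tested, and, Dcn being lost, with a constant of 1, with no filter, with arrays centred on their median, with probe sets averaged, without the _s_at, _x_at and _a_at probe sets, with no intensity trend, with only the 2 groups compared, with replicates 1 and 2 alone and with beta-actin 3′ to 5′ ratio in the model. Leaving out 1 array at a time gave 1 to 2. With the replicate block the members called stayed at 3, 2 and 5, and the genes called were 1866, 1225 and 2493. The main counts over all genes were 1031, 551 and 1672. Replicate 3 as a batch term gave 2118, 1461 and 2714, probe sets averaged 607, 271 and 1109, and centring on the array median 525, 222 and 868 (124 higher and 401 lower in the first, against 381 and 650, and 50 higher and 172 lower in the second, against 237 and 314). Replicates 1 and 2 alone gave 1747 and 1121 in the first and second comparison, the beta-actin ratio 448 and 249, and only the 2 groups compared 350 in the second. Leaving out 1 array gave, in the first, 472 without control 1, 443 without Ube2m 1 and 388 without Ube2m 2, in the second, 281 without control 1, 195 without Ube2f 1 and 342 without Ube2f 2, and in the last, 1063 without Ube2m 1, 1017 without Ube2m 2 and 1018 without Ube2f 1. Centring on probe sets that reach the level was chosen after seeing the data. Low signals limit Aspn, Lum, Fmod and Islr.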
